A study of Mus musculus with 4 samples.

Results

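A set of 37 genes of mitosis and the spindle was followed through 4 lines of LMTK- cells, mouse fibroblasts derived from L cells that lack thymidine kinase. The set was a list of mitotic cyclins and kinases and of checkpoint, kinetochore, spindle and cytokinesis proteins. Its members were all probe sets that the platform annotation pairs with 1 gene of the list. Of the 37 genes, 36 had such a probe set, 82 probe sets in all, and all 36 were above the filter on low signal, among 10682 genes that were. The 36 genes lie on 15 chromosomes. No probe set was paired with Ccnb1, a B-type cyclin, in the annotation used, and that gene was not analysed here.

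MTf 4 and MTf 6 are clones that were stably transfected with the cDNA of mouse melanotransferrin in the expression vector pCI-neo. Vector 1 and vector 2 are lines of the same cells that carry pCI-neo without an insert, so all 4 lines share the vector and the loss of thymidine kinase. Melanotransferrin, a relative of transferrin that binds iron, is held at the cell membrane, and the comparison asks which transcripts differ when it is overexpressed. Total RNA of each line was hybridised to 1 Affymetrix Mouse Genome 430 2.0 Array. Each MTf line is 1 clone. Whether vector 1 and vector 2 came from separate clones or cultures is not in the labels, so p-values reflect the spread of these 4 samples alone, part of which may be technical.

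Genes of mitosis are transcribed late in the cell cycle, in G2 and M phase, so their mRNA in a growing culture is known to follow how many cells divide. Cyclins A and B switch on Cdk1 to start mitosis, the Aurora and Polo kinases and the kinesins build the spindle, the checkpoint holds anaphase until kinetochores are attached, and a ring at the midzone then splits the cell. In such a culture a smaller share of cells in G2 and M phase and less of each mRNA per dividing cell cannot be told apart. Many of these promoters are known to hold the cell cycle genes homology region, with the core TTTGAA, and CCAAT boxes.

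The members shared an arrangement over the 4 lines that did not follow the groups. In 33 of 36 members both vector 1 and MTf 6 were above both vector 2 and MTf 4, an arrangement found in 21.9% of all genes tested. Among genes at least as bright as the dimmest member the share was 24.3%. The full order of vector 1, MTf 6, vector 2 and MTf 4, from high to low, was seen in 22 members, against 6.74% of all genes. Vector 1 was the highest line in 27 members (22.6% of all genes), and MTf 4 was the lowest in 27 (26.3% of all genes). Since each line is 1 array, these are descriptions of 4 samples and carry no test. By the brightest probe set of each gene, the members outside the arrangement were Kif4, Kif23 and Ndc80. The other tested probe set of Kif23 had the arrangement. In Cdc25b and Bub1b it rests on neighbouring lines with almost equal signals.

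Promoters of 5 members are printed to show what the motifs of G2 and M phase genes look like and where they lie. Ube2c, Cdc20, Cdk1 and Kif11 hold TTTGAA before the start, and in Kif4 it lies after the start, beyond the printed stretch. They were chosen as examples of the motifs and do not show that motif and arrangement go together. Sequences are from RefSeq for the build GRCm38.p6, 120 bases up to the base before the transcription start, 5′ to 3′ on the gene's strand. Capitals mark TTTGAA and CCAAT on either strand, where TTCAAA and ATTGG are the reverse complements.
Ube2c, chr2:164769809-164769928, plus strand: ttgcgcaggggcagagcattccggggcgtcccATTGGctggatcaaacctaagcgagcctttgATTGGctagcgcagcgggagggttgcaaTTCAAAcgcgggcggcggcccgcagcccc
Cdc20, chr4:118437344-118437463, minus strand: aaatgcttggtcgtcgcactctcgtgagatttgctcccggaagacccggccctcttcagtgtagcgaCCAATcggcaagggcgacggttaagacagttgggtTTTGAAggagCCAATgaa
Cdk1, chr10:69352913-69353032, minus strand: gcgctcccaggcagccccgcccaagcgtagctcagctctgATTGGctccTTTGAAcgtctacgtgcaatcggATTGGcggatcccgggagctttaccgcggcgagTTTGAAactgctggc
Kif11, chr19:37376262-37376381, plus strand: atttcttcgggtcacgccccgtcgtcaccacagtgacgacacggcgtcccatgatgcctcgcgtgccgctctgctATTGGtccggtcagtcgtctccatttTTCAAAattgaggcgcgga
Kif4, chrX:100625945-100626064, plus strand: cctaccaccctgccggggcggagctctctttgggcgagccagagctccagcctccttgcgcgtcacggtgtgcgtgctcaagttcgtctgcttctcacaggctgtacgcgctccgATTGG

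TTTGAA began 29 bases before the start in Ube2c, 18 in Cdc20, 19 in Kif11, and 71 and 15 in Cdk1. The printed stretch of Kif4 held 1 CCAAT box in reverse, 5 bases before the start, and its TTTGAA lay within the 50 bases after the start. RefSeq promoter entries, from 250 bases before the start to 50 after it, were found for 30 of the 37 genes, Ccnb1 included. TTTGAA on either strand was present in 22 of these 30 (73.3%), against 20.2% of all genes with an entry. It lay within 50 bases of the start in 20 members (66.7%), against 5.72% of all genes. CCAAT was present in 24 of 30 (80.0%), against 41.1% of all genes, and both motifs in 19 (63.3%), against 7.97%. Presence of TTTGAA did not separate the members by their arrangement over the lines. Of 26 members in the arrangement that had an entry, 19 held it and 7 did not (Birc5, Bub1, Cdc25b, Cenpe, Mad2l1, Nek2 and Nusap1), and all 3 outside it, Kif4, Kif23 and Ndc80, held it. A match is a string of letters and not a bound site.

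**Figure D1:**
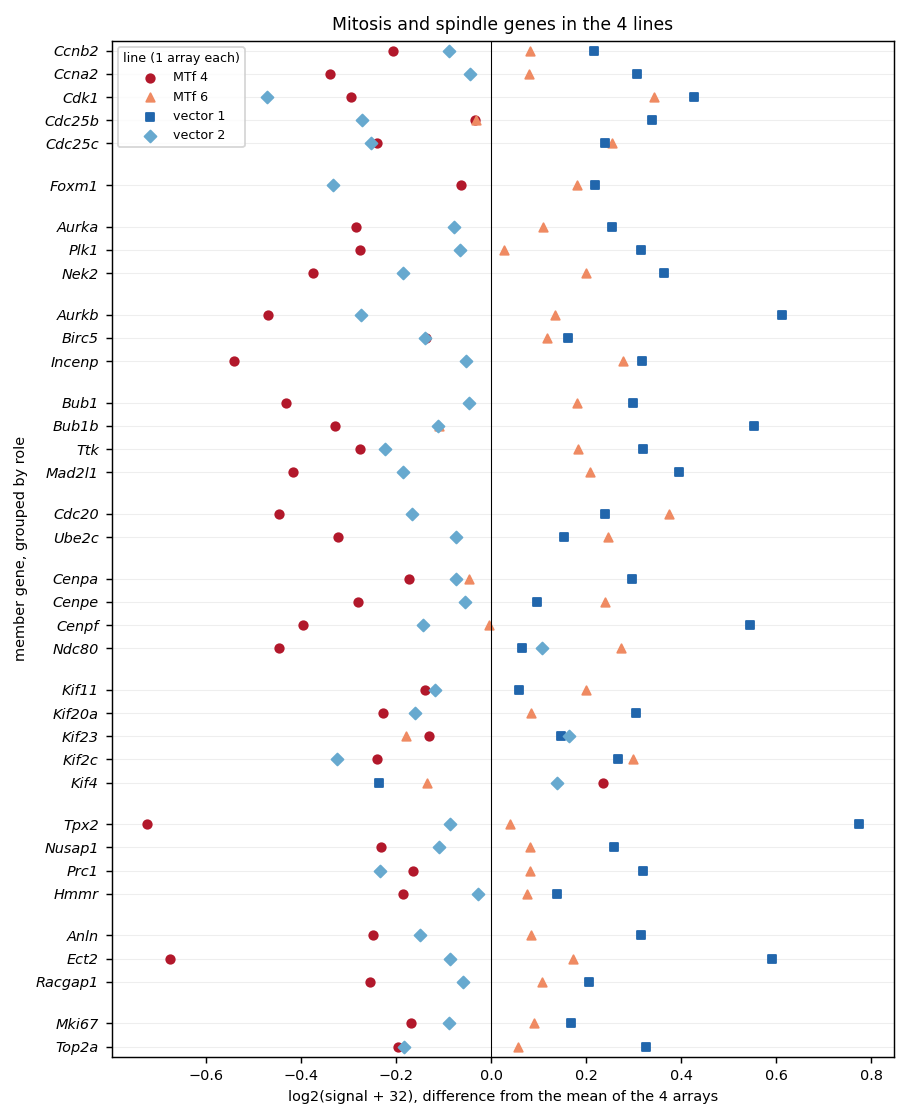
Each row is 1 of the 36 members, grouped by role, and each point is 1 line, placed by its log2(signal + 32) minus the mean of the 4 lines for that gene on the horizontal axis. The points of vector 1 and MTf 6 lie right of those of vector 2 and MTf 4 in 33 of the 36 rows.

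All signals are scaled array signals on a linear scale, 1 probe set per gene, the one with the highest mean. A level is not compared between genes, since probe sets differ in how they bind. Within a gene, log2 differences are of signal + 32, the offset used for every line.

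The cyclins and Cdk1 start mitosis. Ccnb2, a B-type cyclin, had signals of 6563 in MTf 4 and 8025 in MTf 6, against 8809 in vector 1 and 7124 in vector 2. Ccna2, the A-type cyclin of S and G2 phase, had 6077 in MTf 4 and 8125 in MTf 6, against 9520 in vector 1 and 7456 in vector 2. Cdk1, their kinase partner, had 7079 in MTf 4 and 11038 in MTf 6, against 11703 in vector 1 and 6260 in vector 2. In each of these 3 genes the groups overlapped, with 1 line of each group high and the other low. Cdk1 had the widest gap of all members between the vector lines, 1.87-fold, and its group means of 9058 ± 2799 and 8982 ± 3849 (SD, n = 2 each) for MTf and vector were close to each other.

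The phosphatases Cdc25b and Cdc25c remove the inhibitory phosphates of Cdk1. Cdc25b had 2191 in MTf 4 and 2196 in MTf 6, against 2847 in vector 1 and 1853 in vector 2. Its vector lines thus enclosed both clones, which had nearly the same signal. Cdc25c had 651 in MTf 4 and 929 in MTf 6, against 920 in vector 1 and 645 in vector 2. Foxm1, a transcription factor that drives many genes of G2 and M phase, had 1214 in MTf 4 and 1444 in MTf 6, against 1483 in vector 1 and 1002 in vector 2. Its difference of 0.12 (SE 0.26) on the log2 scale was the highest of the members.

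Aurka, the Aurora kinase of centrosomes and spindle poles, had 2974 in MTf 4 and 3917 in MTf 6, against 4334 in vector 1 and 3438 in vector 2. Plk1, the Polo kinase of mitotic entry, had 3256 in MTf 4 and 4025 in MTf 6, against 4925 in vector 1 and 3770 in vector 2. Nek2, a kinase that acts in centrosome separation, had 4216 in MTf 4 and 6301 in MTf 6, against 7058 in vector 1 and 4813 in vector 2. All 3 kinases followed the order of vector 1, MTf 6, vector 2 and MTf 4, and their log2 differences lay between -0.25 and -0.18.

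The chromosomal passenger complex corrects faulty attachments to the spindle. Aurkb, its kinase, had 1828 in MTf 4 and 2794 in MTf 6, against 3902 in vector 1 and 2098 in vector 2. Incenp, its scaffold, had 4743 in MTf 4 and 8397 in MTf 6, against 8635 in vector 1 and 6664 in vector 2. Birc5, also known as survivin, had 6460 in MTf 4 and 7709 in MTf 6, against 7951 in vector 1 and 6449 in vector 2. Aurkb spanned 2.11-fold from its lowest to its highest line, and Birc5 spanned 1.23-fold, the narrowest range of the 36 members.

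In the spindle checkpoint, Bub1, a kinetochore kinase, had 2746 in MTf 4 and 4216 in MTf 6, against 4575 in vector 1 and 3592 in vector 2. Bub1b, which encodes BubR1 of the complex that inhibits Cdc20, had 2145 in MTf 4 and 2504 in MTf 6, against 3981 in vector 1 and 2499 in vector 2. MTf 6 and vector 2 were thus almost equal in Bub1b, and vector 1 alone stood high. Ttk, the kinase Mps1, had 1589 in MTf 4 and 2197 in MTf 6, against 2419 in vector 1 and 1649 in vector 2. Mad2l1, the inhibitor of Cdc20, had 10414 in MTf 4 and 16064 in MTf 6, against 18288 in vector 1 and 12231 in vector 2. The target of that inhibitor, Cdc20, which activates the anaphase-promoting complex, had 12086 in MTf 4 and 21392 in MTf 6, against 19463 in vector 1 and 14693 in vector 2. Ube2c, the ubiquitin-conjugating enzyme that serves this complex, had 9163 in MTf 4 and 13605 in MTf 6, against 12765 in vector 1 and 10893 in vector 2. In Cdc20 and Ube2c the highest line was MTf 6, not vector 1.

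At the centromere, Cenpa, the histone H3 variant that marks it, had 5468 in MTf 4 and 5977 in MTf 6, against 7584 in vector 1 and 5863 in vector 2. Cenpe, a kinetochore motor, had 2177 in MTf 4 and 3138 in MTf 6, against 2837 in vector 1 and 2550 in vector 2. Cenpf, a large kinetochore protein of G2 and M phase, had 2580 in MTf 4 and 3396 in MTf 6, against 4988 in vector 1 and 3083 in vector 2. Ndc80, which binds the microtubule at the kinetochore, had 834 in MTf 4 and 1396 in MTf 6, against 1203 in vector 1 and 1240 in vector 2. In Ndc80 the vector lines were almost equal and lay between the clones, which differed 1.65-fold.

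Among the roles the kinesins had the lowest share of members in the shared arrangement, 3 of 5. Kif11, the motor that pushes spindle poles apart, had 1835 in MTf 4 and 2330 in MTf 6, against 2110 in vector 1 and 1864 in vector 2. Kif2c, a kinesin that takes microtubules apart, had 2115 in MTf 4 and 3089 in MTf 6, against 3019 in vector 1 and 1992 in vector 2. Kif20a, a motor of cytokinesis, had 1293 in MTf 4 and 1611 in MTf 6, against 1882 in vector 1 and 1355 in vector 2. Those 3 kept it, and the other two did not.

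Kif4, a chromosome-bound motor that also acts at the midzone, was the only member with MTf 4 as its highest and vector 1 as its lowest line. It had 8951 in MTf 4 and 6917 in MTf 6, against 6450 in vector 1 and 8380 in vector 2. Kif23, the motor subunit of centralspindlin, was the only member whose groups did not overlap in its brightest probe set. It had 1630 in MTf 4 and 1577 in MTf 6, against 1983 in vector 1 and 2008 in vector 2, or 1603 ± 37.5 in MTf lines, against 1995 ± 17.0 in vector lines (SD, n = 2 each). Its log2 difference was -0.31 (SE 0.20, 95% interval -0.77 to 0.14), and limma's adjusted p over all probe sets was 1.00. Separation in this direction was seen in 12.7% of all genes, and in the other direction in 0 members and 11.7% of all genes. Another tested Kif23 probe set had 372 in MTf 4 and 441 in MTf 6, against 630 in vector 1 and 389 in vector 2. There the groups overlapped, and the order was vector 1, MTf 6, vector 2 and MTf 4 from high to low.

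Among spindle assembly factors, Tpx2, the activator of Aurka on spindle microtubules, had the widest range of all members. It had 2542 in MTf 4 and 4336 in MTf 6, against 7237 in vector 1 and 3969 in vector 2, and its highest and lowest lines differed 2.82-fold. The next brightest probe set of Tpx2 had 1331 in MTf 4 and 1327 in MTf 6, against 1776 in vector 1 and 1063 in vector 2. There the range was 1.65-fold. Nusap1, which binds and bundles spindle microtubules, had 4224 in MTf 4 and 5255 in MTf 6, against 5948 in vector 1 and 4601 in vector 2. Prc1, which crosslinks the midzone, had 5889 in MTf 4 and 6993 in MTf 6, against 8260 in vector 1 and 5613 in vector 2. Hmmr, the hyaluronan receptor RHAMM that also acts in spindle assembly, had 3003 in MTf 4 and 3602 in MTf 6, against 3764 in vector 1 and 3351 in vector 2.

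For cytokinesis, Ect2, the exchange factor that activates RhoA at the cell equator, had 2830 in MTf 4 and 5121 in MTf 6, against 6858 in vector 1 and 4273 in vector 2. This was the next widest range, 2.41-fold. Racgap1, the partner of Kif23 in centralspindlin, had 4914 in MTf 4 and 6325 in MTf 6, against 6773 in vector 1 and 5633 in vector 2. By their brightest probe sets the 2 subunits of centralspindlin differed in order, Racgap1 in the shared arrangement and Kif23 outside it. The other tested probe set of each of these genes had the arrangement. Anln, the actin-binding anillin of the contractile ring, had 7353 in MTf 4 and 9262 in MTf 6, against 10871 in vector 1 and 7872 in vector 2.

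Mki67 and Top2a are used as markers of dividing cells. Mki67, which coats mitotic chromosomes, had 10567 in MTf 4 and 12653 in MTf 6, against 13343 in vector 1 and 11178 in vector 2. Top2a, the topoisomerase of chromosome condensation and separation, had 11193 in MTf 4 and 13346 in MTf 6, against 16092 in vector 1 and 11298 in vector 2. By these probe sets both were highest in vector 1 and lowest in MTf 4, with group differences of -0.079 (SE 0.19) and -0.14 (SE 0.22) on the log2 scale. Another tested Top2a probe set had 1553 in MTf 4 and 1819 in MTf 6, against 1725 in vector 1 and 1395 in vector 2. It kept the shared arrangement, but MTf 6 was highest, vector 2 lowest and the group difference 0.11.

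The gap between the lines of a group was set beside the gap between groups. MTf 4 was below MTf 6 in 34 of 36 members, against 45.6% of all genes, with a median log2 difference of -0.38, against 0.050 over all genes. It was at least 1.5-fold below MTf 6 in 9 members (7.02% of all genes) and at least 1.5-fold above it in 0 (12.0% of all genes). Those 9 were Ect2 at 1.80-fold, Cdc20 and Incenp at 1.77-fold, Tpx2 at 1.70-fold, Ndc80 at 1.65-fold, Cdk1 at 1.56-fold, and Aurkb, Mad2l1 and Bub1. Vector 1 was above vector 2 in 33 members, against 46.6% of all genes, with a median of 0.39, against -0.027 over all genes.

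Vector 1 was at least 1.5-fold above vector 2 in 8 members (6.20% of all genes) and at least 1.5-fold below it in 0 (7.63% of all genes). Those 8 were Cdk1, Aurkb at 1.85-fold, Tpx2 at 1.82-fold, Cenpf at 1.61-fold, Ect2 at 1.60-fold, Bub1b at 1.59-fold, Cdc25b at 1.53-fold and Kif2c at 1.51-fold. Cdk1, Aurkb, Tpx2 and Ect2 were in both lists. The gap between the MTf lines was larger than that between the group means in 31 members (71.0% of all genes), and the gap between the vector lines in 34 (66.8% of all genes).

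**Figure D2:**
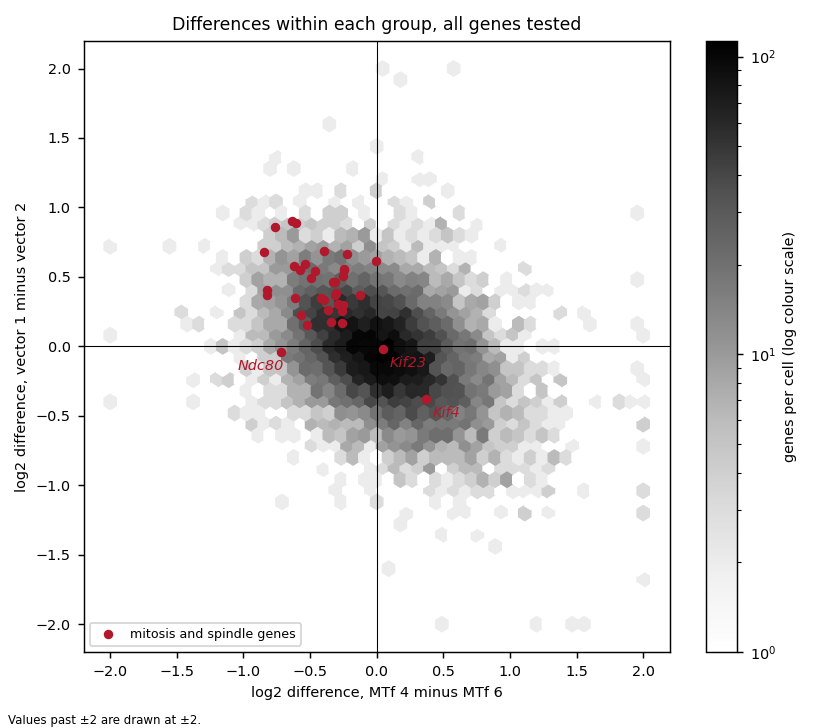
Each point is 1 gene, with the log2 difference of MTf 4 minus MTf 6 on the horizontal axis and of vector 1 minus vector 2 on the vertical axis, members as red points over all genes tested, which are drawn as grey cells shaded by their number of genes. Values past the axis limits are drawn at the limits. Of the 36 members, 33 lie where MTf 4 is below MTf 6 and vector 1 is above vector 2.

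Between the groups no member differed past the threshold. With limma and Benjamini-Hochberg adjustment over all 22519 probe sets, 0 of the 71 member probe sets tested had an adjusted p under 0.05, against 0.00444% of all probe sets, which is 1 probe set. At an unadjusted p under 0.05, 0 of the 36 representative probe sets and 2 of the 71 were lower in MTf lines (0.861% of all probe sets), and 0 of the 71 were higher (1.04%). Of the 36 members, 30 had a lower mean in MTf lines, against 51.0% of all genes, and the other 6, Cdc25c, Cdk1, Foxm1, Kif11, Kif2c and Kif4, had a higher one. The median log2 difference was -0.15 over the members and -0.0055 over all genes. All 36 of the 95% intervals held 0. With 2 arrays per group this does not show that the members were equal: the overexpressed gene Meltf, 5.72-fold higher in MTf lines, itself missed the threshold.

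That median and count rest on single lines. Without vector 1 the median was 0.036 and 15 members were lower, and without MTf 4 it was 0.027 with 12 lower. Without vector 2 the median was -0.36 with 35 lower, and without MTf 6 it was -0.32 with 35 lower. Set pair by pair, MTf 4 was below vector 1 in 35 of 36 members (median log2 difference -0.52) and below vector 2 in 28 (-0.17), while MTf 6 was below vector 1 in 28 (-0.14) and above vector 2 in 34 (0.24). The direction of the members therefore differed with the pair of lines chosen.

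The members with the lowest differences were all highest in vector 1 and lowest in MTf 4. Tpx2 was at -0.69 (SE 0.35, 95% interval -1.49 to 0.12), with group means of 3439 ± 1269 in MTf lines and 5603 ± 2310 in vector lines (SD, n = 2 each). From bright to dim, the other tested probe sets of Tpx2 were at -0.048, -0.63 and -0.68. Ect2 was at -0.50 (95% interval -1.28 to 0.27), Bub1b at -0.44 (-1.04 to 0.16) and Cenpf at -0.40 (-1.04 to 0.23). Adjusted p was 1.00 for each by limma. These 4, with Ccna2, Cenpa, Kif23 and Plk1, are the 8 members that stayed lower in MTf lines whichever array was left out.

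**Figure D3:**
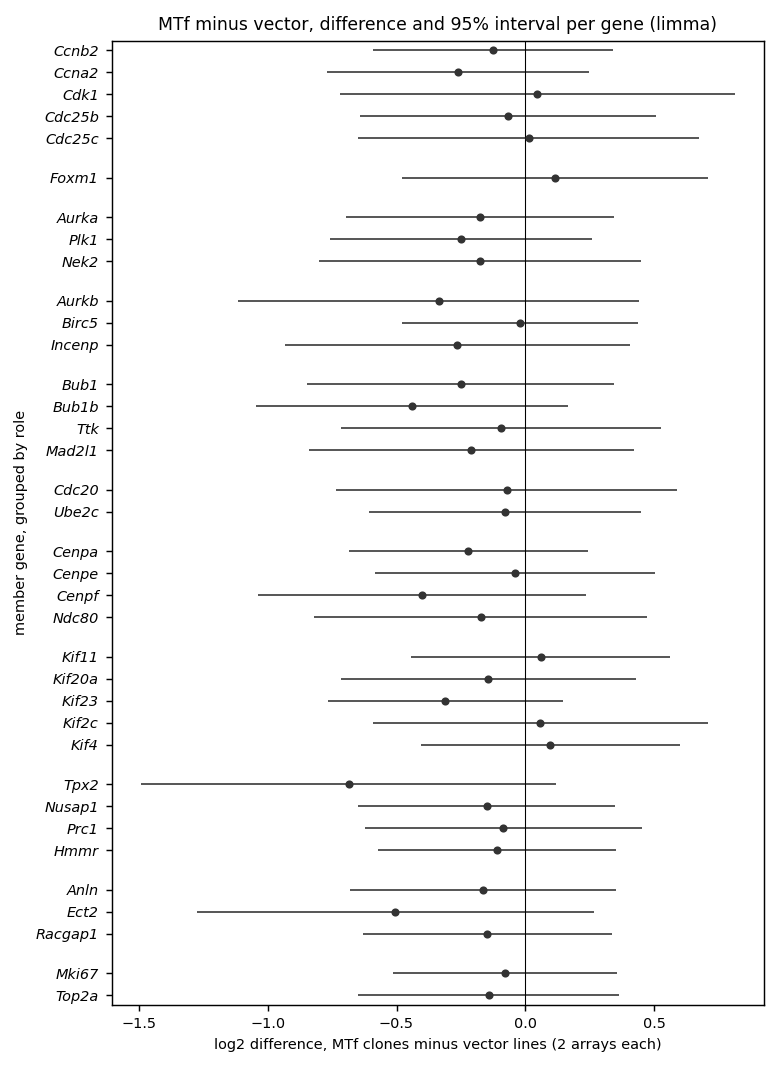
Points give the log2 difference of MTf lines minus vector lines for each of the 36 members, sorted by role, and bars the 95% interval of limma's fit. Every interval crosses 0, and 30 of the points lie below it.

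The other probe sets of the members mostly kept the gaps within groups. More of them than of the representative ones had both MTf lines below both vector lines. Besides the representative ones, 35 were tested, from 21 genes, and 27 of them had the same sign of the group difference. MTf 4 was below MTf 6 in 33 of the 35, and vector 1 above vector 2 in 33. Of all 71 probe sets, 58 had vector 1 and MTf 6 above vector 2 and MTf 4 (21.3% of all probe sets), and 9 had both MTf lines below both vector lines (13.6%), against 0 the other way (12.2%). Those 9 belonged to Aurkb, Bub1b, Cenpf, Incenp, Kif23, Nek2, Prc1 and Tpx2, the last with 2, and apart from Kif23 they were not the brightest probe sets of their genes. Among the 36 representative probe sets alone, 33 had the arrangement and 1 had both MTf lines below both vector lines. The count of separated groups thus differed between the representative and the other probe sets. Over all 71 the share with MTf lines lower was 12.7%, near the 13.6% of all probe sets.

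The probe sets past an unadjusted p of 0.05 were one of Cenpf and one of Prc1, named here after their values were seen. The Cenpf probe set 1452334_at had 317 in MTf 4 and 321 in MTf 6, against 613 in vector 1 and 505 in vector 2, a log2 difference of -0.75 (95% interval -1.37 to -0.13). Its group difference was larger than that of the brighter probe set of Cenpf, in which MTf 6 lay above vector 2. The Prc1 probe set 1423774_a_at had 4625 in MTf 4 and 5854 in MTf 6, against 8105 in vector 1 and 6581 in vector 2, at -0.49. In limma's adjustment both stayed at an adjusted p of 1.00.

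Lists of other cell cycle genes, chosen for their roles, were counted in the same way, and 0 genes of each passed the adjusted threshold by limma. DNA replication genes, which act in S phase, had the widest gaps: of 37 tested, 33 showed vector 1 and MTf 6 above vector 2 and MTf 4, with a median log2 difference of -0.68 for MTf 4 minus MTf 6 and 0.76 for vector 1 minus vector 2. Between groups 34 of the 37 were lower in MTf lines, with a median of -0.13. The arrangement of the members was thus common among S phase genes too.

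Of 35 other centromere, kinetochore and checkpoint genes tested, 26 had the arrangement and 25 were lower in MTf lines (median -0.094). Ska2, of the complex that couples kinetochores to microtubules, had 2071 in MTf 4 and 1816 in MTf 6, against 2692 in vector 1 and 2486 in vector 2. Its groups did not overlap, and its difference of -0.41 did not pass. In this list 4 genes had both MTf lines below both vector lines (12.7% of all genes), and 1 had them above (11.7%). Among 25 other spindle and cytokinesis genes, 15 had the arrangement and 20 were lower (median -0.13). Kif22, a chromosome-bound kinesin, had 7432 in MTf 4 and 10461 in MTf 6, against 13826 in vector 1 and 11488 in vector 2, at -0.51. Its unadjusted p by limma was 0.048, and its groups did not overlap. Of these 25 genes, 6 were separated with MTf lines lower and 0 with MTf lines higher.

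Of 17 other genes of mitotic entry and its transcription, 13 had the arrangement and 12 were lower (median -0.17). Wee1, the kinase that holds Cdk1 inactive, had 1531 in MTf 4 and 1965 in MTf 6, against 2623 in vector 1 and 2298 in vector 2, at -0.49. The groups of Wee1 did not overlap. Of these 17 genes, 2 were separated with MTf lines lower (12.7% of all genes) and 0 with MTf lines higher (11.7%). Mybl2, a transcription factor that acts before Foxm1 on many of these promoters, had 512 in MTf 4 and 749 in MTf 6, against 1235 in vector 1 and 728 in vector 2, at -0.59. All 7 tubulins tested had the arrangement. Of 23 cohesin, condensin and separase genes, 15 had it, and Smc4, a condensin core subunit, had 15119 in MTf 4 and 19884 in MTf 6, against 25186 in vector 1 and 18998 in vector 2.

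The list of the anaphase-promoting complex held 13 subunits and 3 regulators or partners, Fzr1, Fbxo5 and Ube2s. Of these 16, 3 had the arrangement, the subunits Anapc1 and Anapc7 and the ubiquitin-conjugating enzyme Ube2s, and 7 were lower and 9 higher in MTf lines (median 0.089). Among the 13 subunits alone, 2 had the arrangement, and 4 were lower and 9 higher. Fzr1, which like Cdc20 activates the complex, did not have it. Cdc23 had 1270 in MTf 4 and 1253 in MTf 6, against 1729 in vector 1 and 1601 in vector 2, and Cdc26 had 2453 in MTf 4 and 2981 in MTf 6, against 2005 in vector 1 and 2199 in vector 2. Both are subunits of the complex, their groups did not overlap, and they differed in opposite directions, at -0.39 and 0.36, without passing. Of the 16 genes, 2 were separated with MTf lines lower (12.7% of all genes) and 6 with MTf lines higher (11.7%).

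**Figure D4:**
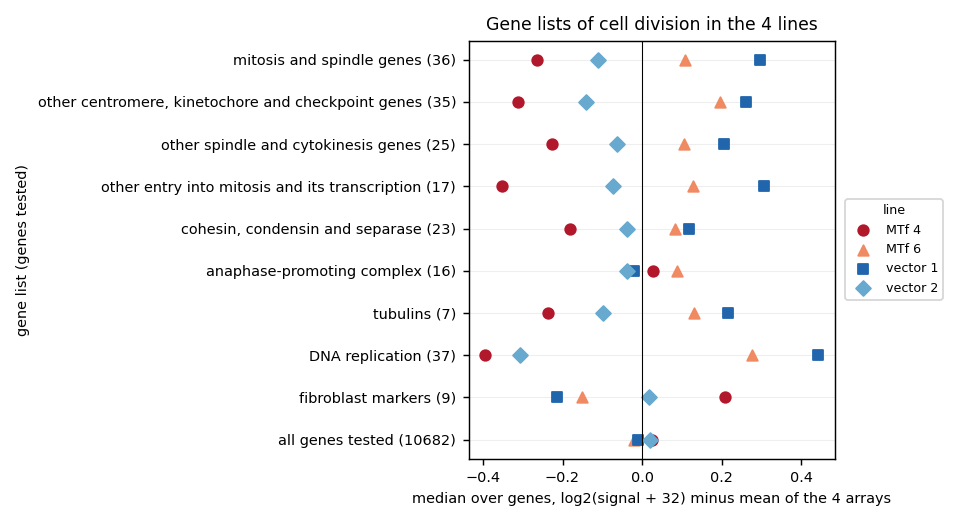
For each gene list, points give the median over its tested genes of the log2 difference of each line from the mean of the 4 lines. The members lie at -0.27 for MTf 4 and 0.11 for MTf 6, against 0.30 for vector 1 and -0.11 for vector 2. The median of the fibroblast markers lies on the other side of 0 in all 4 lines. It is 0.21 for MTf 4 and -0.15 for MTf 6, against -0.21 for vector 1 and 0.016 for vector 2.

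Fibroblast markers were mixed over the lines. Of 12 listed, 9 were above the filter (Thy1, Lum and Dcn were not), and their summed signal was 299622 in MTf 4 and 239198 in MTf 6, against 222451 in vector 1 and 255227 in vector 2. None of the 9 had vector 1 and MTf 6 above vector 2 and MTf 4. The reverse, MTf 4 and vector 2 above MTf 6 and vector 1, was seen in 5 (Fn1, Col1a1, Vim, Sparc and Pdgfra), against 29.2% of all genes. Pdgfrb, a receptor of platelet-derived growth factor, had 1191 in MTf 4 and 1238 in MTf 6, against 2006 in vector 1 and 1437 in vector 2. It was highest in vector 1 and lowest in MTf 4 like most members, but unlike them its groups did not overlap. Of the 9 markers, 1 was separated with MTf lines lower (12.7% of all genes). With MTf lines higher there were 2, Col1a2 and S100a4 (11.7%). Fn1, which encodes fibronectin, had 56426 in MTf 4 and 31986 in MTf 6, against 24585 in vector 1 and 35814 in vector 2. The part of these genes in the values of the members was not tested.

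Markers of other cells were dim: 3 of 4 leukocyte markers, 2 of 5 epithelial, 1 of 5 melanocyte, 1 of 4 endothelial and 2 of 4 muscle markers were above the filter. The summed leukocyte signal was 1445 in MTf 4 and 760 in MTf 6, against 1307 in vector 1 and 1241 in vector 2, with the common leukocyte gene Ptprc below the filter. The other summed signals lay between 552 and 1637 in all lines, and their part in the members' values was not tested. Meltf, the gene of melanotransferrin, gave 1519 and 1885 in clones MTf 4 and MTf 6, against 265 and 274 in the lines vector 1 and vector 2, with a limma adjusted p of 0.0903. Tk1 was below the filter at 53.2 in MTf 4 and 206 in MTf 6, against 61.0 in vector 1 and 112 in vector 2. The trimmed mean signal was 1000.01 on every array, with medians between 209 and 214. Actb 3′ to 5′ signal ratios, a measure of RNA quality, lay between 1.21 and 1.31 and were highest in MTf 6. The same ratios of Gapdh lay between 0.67 and 0.69 and were lowest in MTf 6.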

How the data were processed

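The authors deposited 1 intensity per probe set and array, on a linear scale, made with the software GCOS 1.3 per the submitters' processing notes. How GCOS was set is not given in those notes, and its detection calls were not used. With equal trimmed means the arrays were not rescaled. After adding 32 and taking log2, 64 control probe sets were dropped, as were those whose mean fell under the median of the remaining 45037 (about 196 as a signal). MTf minus vector was then fitted for 22519 probe sets with limma 3.58.1 in R 4.3.3 (lmFit, eBayes with a trend) and adjusted over all of them by Benjamini-Hochberg, at a threshold of 0.05. The fit was tested on simulated data. The smallest two-sided exact permutation p with 2 arrays per group is 0.333. A gene's representative is the probe set of highest mean. The platform annotation can be old, and a further probe set that names Foxm1 with other genes was not used. Named genes are the 36 members, Meltf, Tk1 and up to 2 genes of each list with the smallest p. The members, lists and tests were chosen with earlier results of these data known. Alternatives covered the offset, filter, normalization, trend, choice of probe set and leaving out each array. Depth has no meaning for arrays, and the number of arrays limits the precision.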

Additional observations from a re-analysis of the deposited data

Results flagged for a closer look

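A probe set of Incenp below the filter on low signal, outside all comparisons above, had a mean signal of 27.8 in MTf lines (26.5 in MTf 4 and 29.0 in MTf 6), against 22.1 in vector lines (21.0 in vector 1 and 23.1 in vector 2). Both MTf lines were above both vector lines in values that no comparison used. All 4 signals are under the offset of 32. Of the 4 brighter probe sets of Incenp that were tested, 3 had the opposite sign, at -0.31, -0.26 and -0.015 on the log2 scale, and 1 the same sign, at 0.17. The difference was not tested.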

How the results depend on the processing

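The group difference of the members depended on single arrays and little on other choices. Under every setting tried 0 member probe sets passed by limma (at an unadjusted p under 0.05, 0 to 11), and the lowest adjusted p of a member was 0.637. The median over the members lay between -0.15 and -0.13 for other offsets, filters, quantile normalization, the mean over a gene's probe sets and plain _at probe sets, among them a filter at the dimmest member that was chosen after seeing the data. Of 280 single values under those settings 276 kept their sign. The exceptions were Top2a at 0.11 and Hmmr at 0.048 with only plain _at probe sets, and Cdc25c at -0.075 and Kif11 at -0.086 with the mean over probe sets. Over all probe sets 1 passed, and 0 passed with no filter (1608 at an unadjusted p under 0.05), without a trend (596) and with only plain _at probe sets (386). When 1 array was left out, 2 to 25 passed: 2 without vector 1, 6 without vector 2, 25 without MTf 4 and 12 without MTf 6. These fits leave 1 array in a group, which is assumed to vary like the other group. The sign turned for 28 members, with log2 ranges of Anln -0.40 to 0.068, Aurka -0.37 to 0.021, Aurkb -0.78 to 0.11, Birc5 -0.17 to 0.13, Bub1 -0.56 to 0.056, Ccnb2 -0.28 to 0.027, Cdc20 -0.48 to 0.34, Cdc25b -0.37 to 0.24, Cdc25c -0.23 to 0.26, Cdk1 -0.40 to 0.50, Cenpe -0.30 to 0.22, Foxm1 -0.16 to 0.39, Hmmr -0.24 to 0.020, Incenp -0.67 to 0.15, Kif11 -0.11 to 0.23, Kif20a -0.38 to 0.089, Kif2c -0.24 to 0.36, Kif4 -0.090 to 0.29, Mad2l1 -0.52 to 0.10, Mki67 -0.21 to 0.051, Ndc80 -0.53 to 0.19, Nek2 -0.46 to 0.11, Nusap1 -0.33 to 0.034, Prc1 -0.36 to 0.19, Racgap1 -0.33 to 0.034, Top2a -0.40 to 0.11, Ttk -0.37 to 0.18, Ube2c -0.36 to 0.21. No paired analysis was made because the labels describe no pairing between lines of the 2 groups. The cause of these shifts was not tested. With 1 array per line, a difference between lines cannot be told apart from one between arrays, and dim probe sets are compressed by the offset.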
